A study of Mus musculus with 2 samples.

Results

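The Wnt ligands described here are 10 secreted signalling proteins, *Wnt2*, *Wnt2b*, *Wnt4*, *Wnt5a*, *Wnt5b*, *Wnt9a*, *Wnt10a*, *Wnt10b*, *Wnt11* and *Wnt16*. They were found by gene symbol among the 33696 genes counted in both single-cell RNA sequencing libraries of the series, and each symbol matched 1 gene. Both libraries came from hindlimb digits 2 and 4 of ICR mice, an outbred stock, in which the middle phalanx (P2) had been amputated at postnatal day 3. An agarose bead was implanted at postnatal day 7, soaked in FGF8 at 500 ng/µl for the FGF8 library and in 0.1% BSA for the BSA library, and the tissue was dissociated after 24 h, on postnatal day 8. Each library is a pool of 20 digits from 5 mice of both sexes, and the surrounding epithelium had been removed before dissociation. Since digits were pooled whatever their outcome, the study's methods count digits that do not regenerate as likely members of the FGF8 pool. Both conditions are 1 library each, so there is no test across samples, and an effect of FGF8 cannot be told apart from one of the pooled animals, the dissection or the library.

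Wnt proteins are lipid-modified, secreted glycoproteins that bind Frizzled receptors on nearby cells. With the co-receptors Lrp5 and Lrp6 they stabilise beta-catenin, and with Ror1, Ror2 or Ryk they act largely without it, on cell polarity and movement. In the limb, *Wnt9a* and *Wnt4* are known from the interzone where joints form, *Wnt5a* from distal mesenchyme, *Wnt5b* and *Wnt4* from the growth plate, *Wnt16* from bone-forming cells, and *Wnt10a* and *Wnt10b* from hair and nail epithelium. The study asked whether FGF8 at this amputation wound draws on genes of joint development, and the ligands are described here for that question.

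All 10 ligands carry the short stretch around the serine that the acyltransferase Porcupine modifies, the step that allows secretion and binding to Frizzled. Its coding sequence is shown because all 10 genes carry it. The 24 bases are given 5′ to 3′ on the coding strand from GENCODE vM39 transcripts, with the serine codon in capitals:
Wnt2: tgtcatggtgtgAGTggctcctgt
Wnt2b: tgtcacggtgtgAGTggctcctgt
Wnt4: tgtcacggggtgTCGggctcctgc
Wnt5a: tgtcatggagtgTCTggctcctgt
Wnt5b: tgtcacggagtcTCCgggtcctgc
Wnt9a: tgccatggtgtgTCTggctcctgc
Wnt10a: tgccacggcaccTCAggcagctgc
Wnt10b: tgccatggaacgTCAggcagctgc
Wnt11: tgccatggggtgTCTggctcctgc
Wnt16: tgccacggagttTCCggctcctgt

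Of the 24 positions, 11 were alike in all 10 ligands, and pairs shared between 12 and 23 bases. *Wnt2* and *Wnt2b* shared 23 bases, as did *Wnt9a* and *Wnt11*, whereas *Wnt10a* and *Wnt10b* shared 21. *Wnt5a* and *Wnt5b* shared 19, fewer than the 21 that *Wnt5a* shared with *Wnt2*, *Wnt9a* and *Wnt11*. So short a stretch does not show which members are close relatives. In every ligand the stretch lies within a single coding exon. On GRCm39 it is at chr11:59221752-59221775 in exon 4 of *Wnt9a* (plus strand), at chr4:137023656-137023679 in exon 5 of *Wnt4* (plus strand), at chr6:18008791-18008814 in exon 4 of *Wnt2* (minus strand), and at chr6:22297799-22297822 in exon 4 of *Wnt16* (plus strand). Some of the genes lie beside another Wnt gene: *Wnt9a* is 15983 bp from *Wnt3a*, *Wnt10a* is 5700 bp from *Wnt6*, and *Wnt10b* overlaps *Wnt1* on the opposite strand.

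After filtering, 3252 BSA cells and 6715 FGF8 cells were kept, with medians of 15377 and 12251 unique molecular identifiers (UMIs, each standing for 1 captured transcript) per cell. The libraries shared 6 barcode sequences. Of the cells whose sex could be called from *Xist* and Y-linked genes, 79.3% were female in the BSA library and 24.6% in the FGF8 library. For this reason values within each sex are given for part of the comparisons. Ratios given without them cover cells of both sexes, whose shares differ between the libraries. Levels are UMIs of the gene per 1000000 UMIs of the population (CPM), and every 95% interval covers counting error only. Cells were grouped in clusters that were named, with the ending -like, from marker lists. The connective tissue class joins the 7 clusters led by the fibroblast, tenocyte, joint lining or osteoblast list, 1673 BSA and 3084 FGF8 cells. The marker list of the joint lining-like cluster, which is led by *Prg4* and *Mmp3*, had 3 of 6 markers detected. That cluster held 12.8% of the class's cells in the BSA library and 30.9% in the FGF8 library.

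The ligands overlapped in the cells where they were found. *Wnt5a*, *Wnt9a*, *Wnt2*, *Wnt16*, *Wnt5b* and *Wnt11* lay mainly in connective tissue cells, which held 87.0%, 86.8%, 93.7%, 83.9%, 80.7% and 73.5% of their UMIs. *Wnt4* was spread over keratinocyte-like and matrix-like cells (35.1% of its UMIs), the connective tissue class (30.8%) and chondrocyte-like cells (18.5%). In that keratinocyte-like and matrix-like cluster, of 153 BSA and 224 FGF8 cells, lay 300 of the 750 UMIs of *Wnt10a* and 37.1% of those of *Wnt10b*. The connective tissue class held 54.1% of the UMIs of *Wnt10a* and 49.3% of those of *Wnt10b*. *Wnt2b* had 75 UMIs in all kept cells and was too sparse to place.

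**Figure D1:**
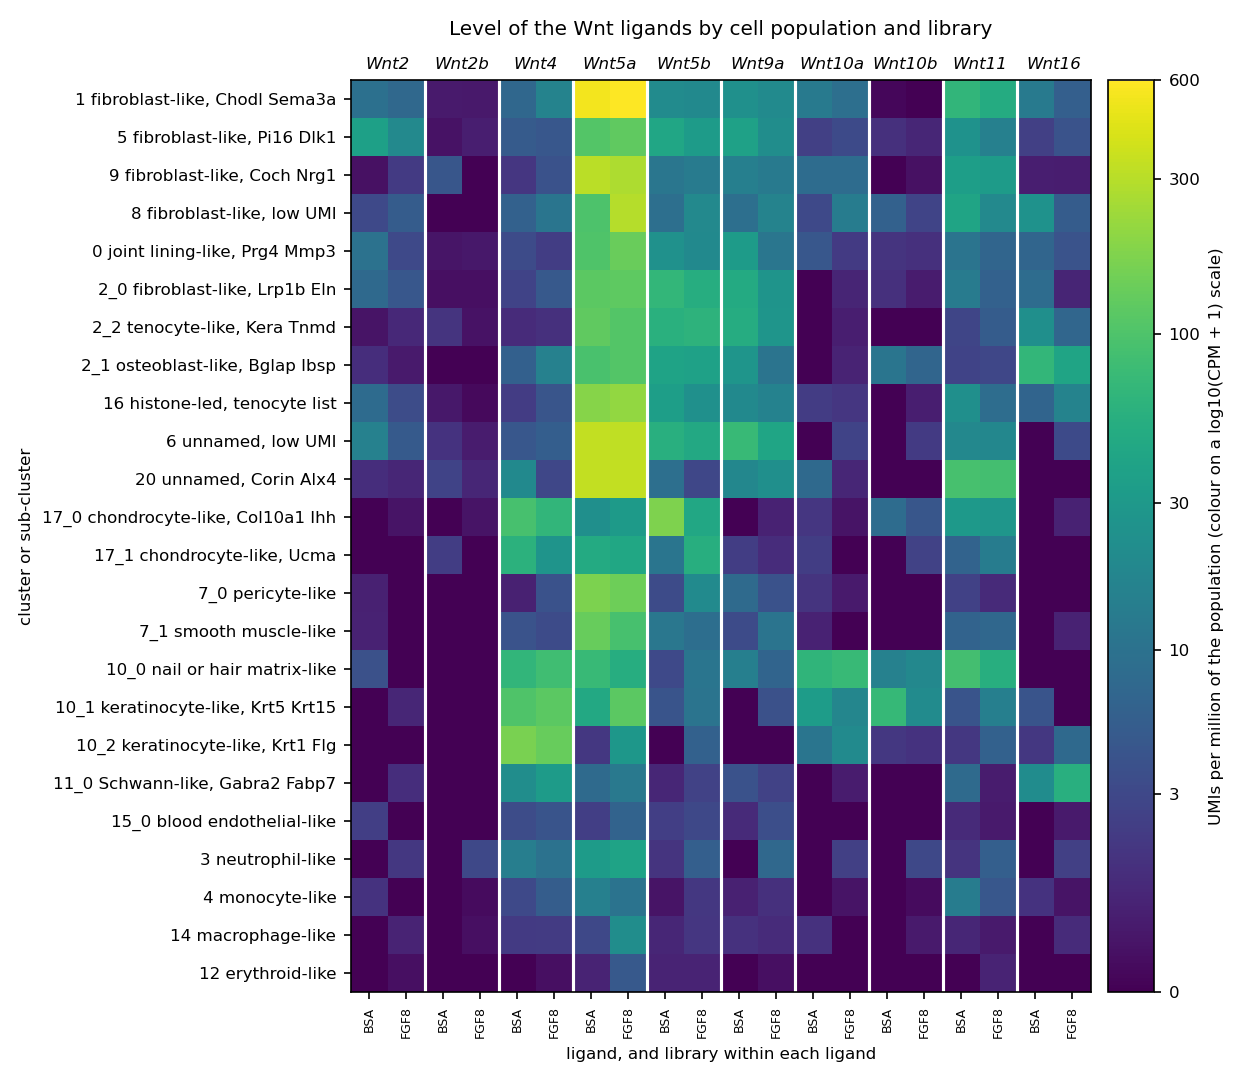
Level of each ligand (columns, BSA and FGF8 library side by side) in 24 clusters or sub-clusters (rows), as CPM, with colour on a scale of log10(CPM + 1). *Wnt5a* is high across the connective tissue rows with its peak in the *Chodl* cluster, *Wnt4* in keratinocyte-like and chondrocyte-like rows, *Wnt10a* and *Wnt10b* in epithelial rows, and *Wnt16* in the osteoblast-like row and in 1 Schwann-like row.

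*Wnt5a*, a ligand that signals mainly through Ror2, was highest in a fibroblast-like cluster led by *Chodl*, *Sema3a* and *Grem1*. Its level there was 534.8 CPM in the BSA library (interval 519 to 550) and 589.7 CPM in the FGF8 library (574 to 605). Next came a small cluster without a name led by *Corin* and *Alx4* (329 and 331 CPM), which overlapped with an unnamed cluster of low UMI counts (335 and 322 CPM). Both were followed, with no overlap of the libraries' values, by a fibroblast-like cluster led by *Coch* and *Nrg1* (310 and 272 CPM). Pericyte-like cells had 171 and 146 CPM, and the *Prg4* cluster had 102 and 137 CPM. A UMI of *Wnt5a* was found in 92.8% of the BSA and 94.7% of the FGF8 cells of the *Chodl* cluster. Erythroid-like cells, which should lack it, gave 1.79% and 4.98%, with median depths of 19780 and 10816 UMIs against 18569 and 13962. When each cell was thinned to 2000 UMIs, the shares in the *Chodl* cluster were 52.2% and 61.5%, and in erythroid-like cells 0 of 56 BSA cells (exact binomial interval up to 6.38%) and 1.66% of FGF8 cells. A second erythroid-like cluster, of low UMI counts (medians 5007 and 2400), had 60.8 and 30.6 CPM of *Wnt5a*. A UMI of it was found in 33.3% of those 27 BSA and 7.37% of those 312 FGF8 cells, and after thinning in 28.6% of 21 and 2.81% of 178.

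*Wnt11*, which also acts on cell polarity, shared part of that distribution. It was highest in the *Corin* and *Alx4* cluster, with 91.2 and 88.1 CPM, ahead of nail or hair matrix-like cells with 87.7 CPM in the BSA and 53.8 CPM in the FGF8 library. The *Chodl* cluster had 65.6 and 49.97 CPM, so that its libraries and those of the matrix-like cells overlapped, and the *Coch* cluster had 34.7 and 32.6 CPM. In the *Prg4* cluster the level was 10.6 and 7.02 CPM.

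*Wnt2* was highest in 1 connective tissue population. A fibroblast-like cluster led by *Tmeff2*, *Agtr2*, *Lpl*, *Pi16* and *Dlk1* held 41.9% of its UMIs, with 36.6 CPM in the BSA (interval 31.7 to 42.1) and 19.3 CPM in the FGF8 library (16.2 to 22.8). The *Prg4* cluster held 20.8% of the UMIs and the *Chodl* cluster 19.0%. The *Chodl* cluster had 9.52 and 7.66 CPM and the *Prg4* cluster 10.1 and 3.09 CPM.

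*Wnt9a*, the interzone ligand, was found in all 7 clusters of the class and hardly at all in cartilage. Among named populations its highest levels were in tenocyte-like cells led by *Kera* and *Tnmd* (51.8 CPM in the BSA and 27.2 in the FGF8 library), in a neighbouring sub-cluster led by *Lrp1b* and *Eln* (48.7 and 26.3 CPM) and in the *Pi16* and *Dlk1* cluster (37.7 and 22.2 CPM). These values overlapped between neighbours, so the data do not set the order of the 3. Chondrocyte-like cells had 1 *Wnt9a* UMI in 66 BSA cells and 3 in 144 FGF8 cells. An unnamed cluster of low UMI counts had 74.4 and 42.1 CPM from 48 and 65 UMIs.

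*Wnt5b* was highest in chondrocyte-like cells led by *Col10a1* and *Ihh*, genes of prehypertrophic and hypertrophic cartilage, with 173 CPM in the BSA library and 45.4 in the FGF8 library. Because of that difference the next populations overlapped with it: the *Lrp1b* and *Eln* sub-cluster (67.8 and 52.3 CPM) and the tenocyte-like cells (56.7 and 60.9 CPM). *Wnt4* was highest in keratinocyte-like cells led by *Krt1* and *Flg*, with 165 and 136 CPM. Keratinocyte-like cells led by *Krt5* and *Krt15* had 101 and 117 CPM, the *Col10a1* and *Ihh* chondrocyte-like cells 92.2 and 65.6 CPM, and nail or hair matrix-like cells 65.8 and 83.1 CPM.

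*Wnt16* and *Wnt10b* met in osteoblast-like cells led by *Bglap* and *Ibsp*, which encode bone matrix proteins. *Wnt16* had 68.5 CPM there in the BSA library (interval 58.1 to 80.2) and 40.7 CPM in the FGF8 library (34.3 to 48.1), and *Wnt10b* had 11.05 and 6.99 CPM. *Wnt16* appeared a second time in Schwann-like cells led by *Gabra2* and *Fabp7*, where its 21.2 and 55.2 CPM overlapped with the osteoblast-like values. Erythroid-like cells had no *Wnt16* UMI in either library, which allows up to 2.71 and 0.87 CPM, and up to 8.69 and 2.55 CPM in the second cluster of low UMI counts. The same *Gabra2* and *Fabp7* cells also carried *Wnt4* (22.2 and 32.7 CPM).

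*Wnt10a* was highest in epithelium, with 65.0 and 72.9 CPM in the nail or hair matrix-like cells, above the keratinocyte-like cells led by *Krt5* and *Krt15* (33.7 and 17.7 CPM). Within connective tissue it was highest in the *Chodl* cluster, with 12.7 and 9.25 CPM. *Wnt10b* had 71.6 CPM in the *Krt5* and *Krt15* cells of the BSA library, but from 17 UMIs in 3 cells, and 20.7 CPM in those of the FGF8 library, from 21 UMIs in 12 cells. In matrix-like cells it had 15.7 and 18.6 CPM.

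Over 65 profiles, each 1 cluster or sub-cluster in 1 library, the genes whose levels followed those of a ligand most closely were taken from 16249 genes. The profiles share libraries and differ in depth, so the coefficients are descriptions. For *Wnt5a* they were *Sh3rf3* (Pearson's r 0.90), *Hoxa10* (0.90) and *Ror2* (0.88), its receptor. For *Wnt9a* they were *Zfhx4* (0.86), *Antxr1* (0.84) and *Fstl1* (0.84), and for *Wnt5b* *Adgrg2* (0.83), *Npas2* (0.81) and *Bcat1* (0.80). *Wnt10b* was closest to the homeobox genes *Dlx3* (0.79) and *Dlx4* (0.74), *Wnt4* to the junction gene *Cxadr* (0.79), *Wnt10a* to *Fzd10os* (0.78), *Wnt2* to *Adgrd1* (0.78), *Wnt11* to *Cybrd1* (0.73) and *Wnt16* to *Cthrc1* (0.65). Among the ligands themselves, the most alike pair was *Wnt5a* and *Wnt9a* (0.68) and the least alike *Wnt4* and *Wnt9a* (-0.16).

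Which ligands differed between FGF8 and BSA was asked first in the connective tissue class as a whole. A gene was called when its level differed more than 2-fold and the interval of the log2 ratio, FGF8 over BSA, left out 0. This is a rule of size, not a test. All 10 ligands had the 10 UMIs required. *Wnt2* and *Wnt9a* were called, both lower in the FGF8 library, and none was called higher. Across the 19880 genes with that minimum, 4.35% were called lower and 4.08% higher, and the median log2 ratio of all genes was -0.08. The median of the 10 ligands was -0.77, with 9 of 10 below 0, as were 11274 of those 19880 genes. At a limit of 1.5-fold, 6 of the 10 were called lower, and so were 11.8% of all genes.

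*Wnt2* had 401 UMIs in the BSA and 359 in the FGF8 library, or 11.7 against 5.32 CPM, a log2 ratio of -1.14 (interval -1.35 to -0.93). *Wnt9a* had 1073 and 1045 UMIs, 31.3 against 15.5 CPM, a log2 ratio of -1.02 (-1.14 to -0.89). Both were lower in cells of either sex: the log2 ratio of *Wnt2* was -1.47 among female-called and -1.28 among male-called cells, and that of *Wnt9a* -1.38 and -0.76.

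*Wnt11* (29.0 against 14.9 CPM, log2 ratio -0.96, interval -1.09 to -0.83) and *Wnt16* (12.8 against 7.15 CPM, -0.84, -1.03 to -0.65) came close to the 2-fold limit without passing it. *Wnt10a* had 5.37 and 3.29 CPM (-0.71, -0.99 to -0.42) and *Wnt5b* 33.7 and 25.5 CPM (-0.41, -0.51 to -0.30). The ratio of *Wnt10a* was -1.16 (-1.72 to -0.63) among female-called and -0.30 (-0.89 to 0.35) among male-called cells. *Wnt5a* differed least among the well-counted ligands, with 236.9 and 208.7 CPM (-0.18, -0.22 to -0.14). Only *Wnt4* was above 0, with 4.47 against 5.52 CPM (0.30, 0.03 to 0.59). Within each sex its interval included 0, with 0.11 (-0.35 to 0.56) among female-called and 0.27 (-0.26 to 0.85) among male-called cells. Without the 10 cells of most *Wnt4* UMIs in each library the ratio was 0.22 (-0.09 to 0.55). *Wnt10b* had 1.52 and 1.28 CPM (-0.25), with an interval from -0.76 to 0.27. *Wnt2b* had 0.85 and 0.44 CPM (-0.93), but 13 of its 29 BSA UMIs were in 1 cell, and without the 10 cells of most UMIs in each library its log2 ratio was 0.46. The sexes disagreed for *Wnt2b*, with 0.47 (-1.07 to 1.96) among female-called and -2.51 (-3.53 to -1.46) among male-called cells.

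Part of these differences went with the makeup of the class, since the *Prg4* cluster supplied 20.01% of its UMIs in the BSA and 47.9% in the FGF8 library. With the BSA library's cluster makeup given to both libraries, the log2 ratio was -0.83 for *Wnt2*, -0.80 for *Wnt9a*, -0.64 for *Wnt16*, -0.47 for *Wnt11*, -0.29 for *Wnt10a*, -0.23 for *Wnt5b*, -0.34 for *Wnt10b*, 0.13 for *Wnt5a* and 0.81 for *Wnt4*. That of the sparse *Wnt2b* was -1.04, past 2-fold. The direction held for the ligands except *Wnt5a*, where it turned, and the *Wnt2* and *Wnt9a* ratios no longer passed 2-fold.

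**Figure D2:**
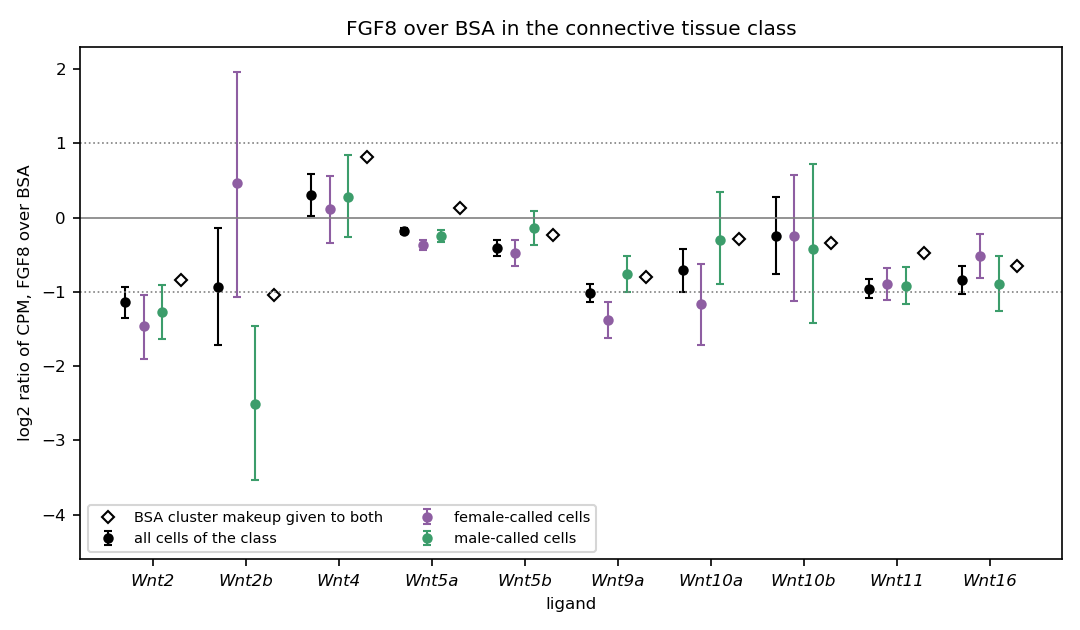
Log2 ratio of CPM, FGF8 over BSA, for each ligand in the connective tissue class, for all cells and for female-called and male-called cells, with 95% counting intervals. Open diamonds give the ratio with the BSA cluster makeup, and dotted lines mark 2-fold. *Wnt2*, *Wnt5b*, *Wnt9a*, *Wnt10a*, *Wnt10b*, *Wnt11* and *Wnt16* lie below 0 in all 4 versions. Of these, intervals include 0 for *Wnt10b*, and among male-called cells also for *Wnt5b* and *Wnt10a*. The intervals of *Wnt4* include 0 within both sexes, and that of *Wnt2b* does among female-called cells.

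Single populations were compared next. In the *Prg4* cluster *Wnt9a* was 32.1 CPM in the BSA library (220 UMIs in 87 of 214 cells) and 11.3 CPM in the FGF8 library (364 UMIs in 225 of 952 cells), a log2 ratio of -1.51 (interval -1.76 to -1.26). It was lower in both sexes there, with log2 ratios of -1.78 for female-called and -1.15 for male-called cells. *Wnt2* was 10.1 and 3.09 CPM (-1.70, -2.16 to -1.24), again in both sexes, and *Wnt10a* 4.67 and 1.95 CPM (-1.26, -1.90 to -0.60), the latter with 11 of its 32 BSA UMIs in 1 cell and at -0.82 without the highest cell of each library. Of all genes counted in that cluster 6.84% were called lower. *Wnt5a* in the same cells was 102 and 137 CPM, a log2 ratio of 0.43 (0.31 to 0.54).

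In the cluster of tenocyte-like, osteoblast-like and *Lrp1b* cells, *Wnt9a* was 43.6 CPM in the BSA and 20.9 CPM in the FGF8 library (-1.06, interval -1.32 to -0.81), where 1.95% of genes were called lower. There it was -1.82 among female-called and -0.75 among male-called cells. The log2 ratio was below 0 in all 3 sub-clusters, at -0.93 in tenocyte-like, -1.32 in osteoblast-like and -0.89 in *Lrp1b* cells. It passed 2-fold in the osteoblast-like cells, where 3.43% of genes were called lower. In the *Pi16* and *Dlk1* cluster the log2 ratio of *Wnt9a* was -0.76 (-1.07 to -0.46) and that of *Wnt2*, in the cells where it is highest, -0.92 (-1.24 to -0.60). In the *Chodl* and *Coch* clusters the interval of *Wnt9a* included 0, with log2 ratios of -0.24 (-0.54 to 0.05) and -0.24 (-0.91 to 0.42). The differences between clusters in these ratios were not tested.

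*Wnt4*, the other interzone ligand, went the opposite way in parts of the class. In the *Chodl* cluster it was 7.43 CPM in the BSA and 16.4 CPM in the FGF8 library, a log2 ratio of 1.14 (interval 0.71 to 1.58), where 3.23% of genes were called higher. The share of cells with a *Wnt4* UMI was 10.7% in the BSA and 11.9% in the FGF8 library, and 16 of the 154 FGF8 UMIs were in 1 cell. Among male-called cells the ratio was 1.16 (0.44 to 1.96) and among female-called cells 0.24 (-0.75 to 1.14). In osteoblast-like cells *Wnt4* was 6.19 and 15.4 CPM (1.32, 0.45 to 2.28), from 14 UMIs in 8 cells and 53 UMIs in 18 cells, where 3.82% of genes were called higher. There the ratio was 1.76 among female-called cells and 1.44 among male-called cells, the latter with an interval from -1.15 to 6.78. In the *Prg4* cluster *Wnt4* was 3.36 and 2.17 CPM, a log2 ratio of -0.63 (-1.33 to 0.12). Keratinocyte-like cells carry much *Wnt4*. In the *Chodl* cluster the 8 keratinocyte markers summed to 56.4 CPM in the BSA and 83.04 CPM in the FGF8 library, and in osteoblast-like cells to 46.4 and 46.9 CPM. The 9 nail or hair matrix markers summed to 18.1 and 37.4 CPM in the *Chodl* cluster and to 7.96 and 20.7 CPM in osteoblast-like cells. The part of these markers in the *Wnt4* values was not tested.

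*Wnt16* differed in direction between populations. In osteoblast-like cells, where its level in the BSA library was highest, it was 68.5 and 40.7 CPM (-0.75, interval -1.09 to -0.41). In tenocyte-like cells it was 23.5 and 7.25 CPM (-1.70, -2.51 to -0.94), from 17 of 93 BSA and 14 of 124 FGF8 cells, where 1.71% of genes were called lower. The sexes disagreed there, with -3.75 among female-called cells and 1.30 (-1.40 to 6.70) among male-called cells, of which 11 were in the BSA library. In the *Chodl* cluster *Wnt16* was 12.9 and 5.95 CPM (-1.11, -1.60 to -0.64), where 1.11% of genes were called lower. The ratio was -0.43 (-1.28 to 0.34) for female-called and -1.37 (-2.15 to -0.58) for male-called cells. In the *Lrp1b* and *Eln* cells it had 30 UMIs in the BSA and 3 in the FGF8 library (-3.21, -5.57 to -1.52), where 1.54% of genes were called lower. Female-called cells gave -2.31 (-7.70 to 0.39) there, and male-called cells had 7 and 2 UMIs. In a cluster led by histone genes, whose best list was the tenocyte list, *Wnt16* was 6.76 and 16.6 CPM (1.30, 0.46 to 2.26), where 2.88% of genes were called higher. The sexes disagreed again, with 3.44 for female-called and -1.07 (-2.36 to 0.49) for male-called cells.

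**Figure D3:**
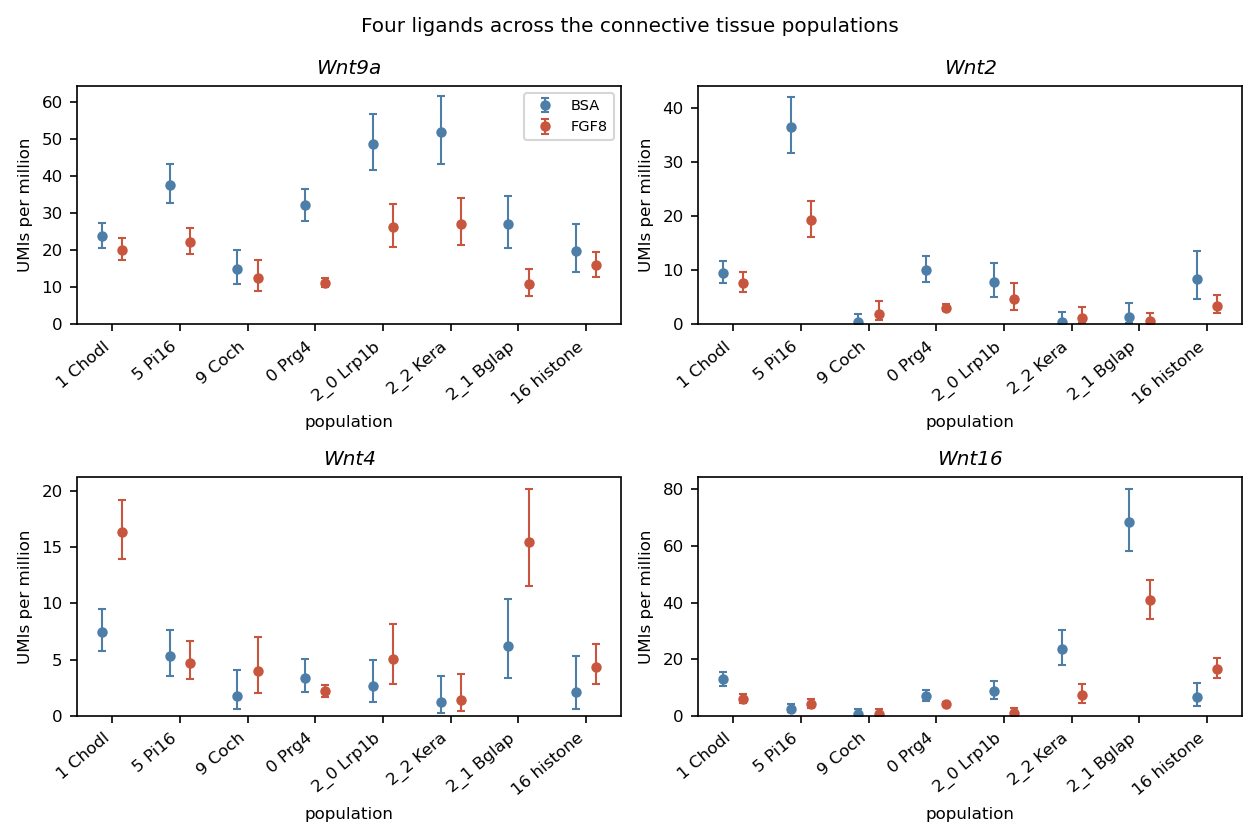
CPM of *Wnt9a*, *Wnt2*, *Wnt4* and *Wnt16* in 8 connective tissue populations, with the BSA library in blue, the FGF8 library in red and 95% counting intervals as bars. *Wnt9a* is lower in the FGF8 library in every population, clearly so in the *Prg4*, *Pi16*, *Lrp1b*, *Kera* and *Bglap* ones, and *Wnt4* is higher in the *Chodl* and *Bglap* populations.

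Outside connective tissue *Wnt5b* differed in chondrocyte-like cells. In the *Col10a1* and *Ihh* cells *Wnt5b* was 173 CPM in the BSA library (201 UMIs in 25 of 34 cells) and 45.4 CPM in the FGF8 library (110 UMIs in 34 of 89 cells), a log2 ratio of -1.93 (interval -2.28 to -1.59). The BSA interval, 150 to 199 CPM, lay above the FGF8 interval, 37.3 to 54.7 CPM. Among female-called cells the ratio was -2.48 and among male-called cells -1.70, the latter resting on 6 BSA cells. In chondrocyte-like cells led by *Ucma* the order was the other way, 11.2 CPM (5 UMIs in 21 cells) and 53.8 CPM (43 UMIs in 48 cells), a log2 ratio of 2.27 (0.93 to 3.96). Male-called *Ucma* cells, of which 5 were in the BSA library, gave 1.85 (-0.13 to 4.96), and female-called ones had 2 and 5 UMIs. In the *Col10a1* and *Ihh* cells 6.27% of genes were called lower, and in the *Ucma* cells 6.43% were called higher. *Wnt4* was lower in the FGF8 library in both, with log2 ratios of -0.49 (-0.85 to -0.12) and -1.20 (-2.10 to -0.32). In the *Ucma* cells 3.71% of genes were called lower, and 16 of the 27 BSA UMIs of *Wnt4* were in 1 cell, without which and the highest FGF8 cell the ratio was -0.21. *Wnt11* was 30.2 and 28.1 CPM in the *Col10a1* and *Ihh* cells. The chondrocyte markers themselves summed to 61434 CPM there in the BSA and 39785 CPM in the FGF8 library. In the *Ucma* cells erythroid markers summed to 138 and 8945 CPM. The part of either in the *Wnt5b* values was not tested.

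In Schwann-like cells as a whole, *Wnt16* was 10.8 CPM in the BSA library (23 UMIs in 10 of 124 cells) and 37.8 CPM in the FGF8 library (122 UMIs in 33 of 241 cells), a log2 ratio of 1.80 (interval 1.15 to 2.51), where 2.93% of genes were called higher. It was above 0 in both sexes, with 1.43 (0.43 to 2.46) for female-called and 0.96 (-0.23 to 2.45) for male-called cells. Without the cell of most *Wnt16* UMIs in each library the log2 ratio was 1.86. In the *Gabra2* and *Fabp7* cells alone it was 1.38 (0.68 to 2.15), where 3.26% of genes were called higher, and 0.58 and 0.49 for female-called and male-called cells, with intervals that included 0. Markers of some other cell types were also higher in the FGF8 Schwann-like cells. The osteoblast markers summed to 18.8 and 49.5 CPM, the tenocyte markers to 16.9 and 67.8 CPM, the chondrocyte markers to 79.1 and 442 CPM and the erythroid markers to 874 and 6014 CPM, and their part in the *Wnt16* values was not tested. Fibroblast markers summed to 4677 and 4247 CPM, and nail or hair matrix markers were lower in the FGF8 library, at 169 and 36.2 CPM. Erythroid-like cells held no *Wnt16* UMI, within the limits given above.

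In nail or hair matrix-like cells the intervals of *Wnt10a* (0.17, -0.22 to 0.56), *Wnt10b* (0.25, -0.54 to 1.09) and *Wnt4* (0.34, -0.04 to 0.72) included 0. *Wnt11* was 87.7 and 53.8 CPM (-0.70, -1.08 to -0.32). *Wnt5b* in these cells was called higher, as were 4.88% of genes, with 3.13 and 11.02 CPM, but 17 of its 26 FGF8 UMIs were in 1 cell. In pericyte-like cells *Wnt5b* had 4 UMIs in the BSA and 36 in the FGF8 library, spread over 22 FGF8 cells (2.64, 1.16 to 4.59), where 2.55% of genes were called higher. Female-called cells had 2 and 3 of these UMIs, and male-called cells 1 and 29. In these pericyte-like cells tenocyte markers summed to 55.8 and 161 CPM, neutrophil markers to 44.3 and 325 CPM and erythroid markers to 2008 and 3718 CPM. Fibroblast markers summed to 6037 and 5732 CPM, and the part of these markers in the *Wnt5b* values was not tested. *Wnt5a* was called in opposite directions in other populations. It was higher in the FGF8 library in keratinocyte-like cells led by *Krt1* and *Flg* (1 and 18 UMIs, 5.91% of genes called higher) in those led by *Krt5* and *Krt15* (11 and 119 UMIs, 46.3 and 117 CPM, 10.6%, intervals within each sex including 0), and in macrophage-like cells (6 and 74 UMIs, 7.76%). The same held for a fibroblast-like cluster of low UMI counts (32 and 106 UMIs, 100.2 and 291 CPM, 6.41%). Its female-called cells, with 13 and 2 UMIs, gave -0.98 (-4.17 to 1.16), and its male-called cells, with 1 and 41 UMIs, gave 3.20 (0.64 to 8.54). *Wnt5a* was lower in mast-like cells (17 and 6 UMIs, 5.19% of genes called lower), but 16 of the 17 BSA UMIs were in 1 cell, and without the highest cell of each library the log2 ratio was 2.02. In lymphatic endothelial-like cells *Wnt5a* had 44 UMIs in 29 of 66 BSA cells and 2 in 1 of 18 FGF8 cells (-3.06, -6.15 to -1.12), where 3.54% of genes were called lower. Among female-called cells, 51 BSA and 5 FGF8, the ratio was -1.29 (-4.39 to 0.68), and male-called cells had no *Wnt5a* UMI.

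**Figure D4:**
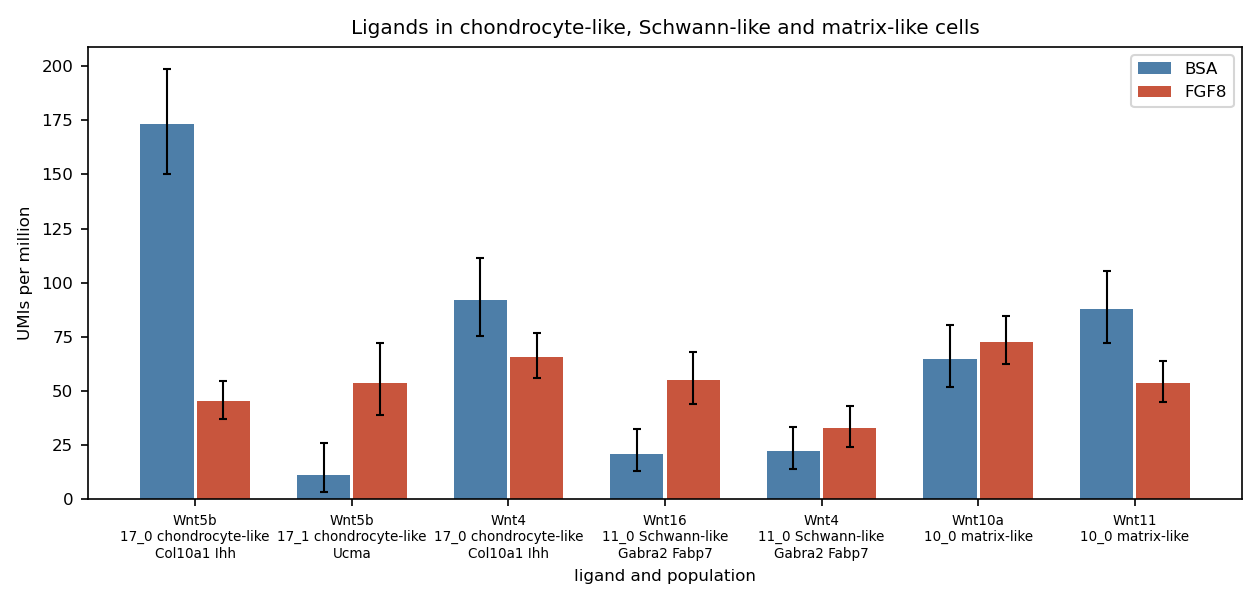
CPM (bar height) of 5 ligands in chondrocyte-like, Schwann-like and nail or hair matrix-like sub-clusters, with the BSA library in blue, the FGF8 library in red and 95% counting intervals as black lines. *Wnt5b* is lower in the FGF8 library in the *Col10a1* and *Ihh* cells and higher in the *Ucma* cells, and *Wnt16* is higher in the *Gabra2* and *Fabp7* Schwann-like cells.

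The rest of the pathway in the connective tissue class was described with 6 lists, read against the same 4.35% of genes called lower and 4.08% called higher. Of the 9 other Wnt genes, 3 reached 10 UMIs in the class, and *Wnt7b* was called higher, with 1.197 and 3.16 CPM (log2 ratio 1.40, interval 0.91 to 1.92). Its ratio was 1.56 in the *Prg4* cluster and 1.08 in the tenocyte-like and osteoblast-like cluster. It was 0.90 (0.27 to 1.55) without the *Prg4* cluster, 1.55 among female-called cells and 3.90 among male-called cells, the latter from 1 BSA UMI. *Wnt6*, the neighbour of *Wnt10a*, had 10.01 and 5.59 CPM in the class (-0.84), and 431 of its 1474 UMIs lay in Schwann-like cells, at 83.8 and 78.3 CPM. Of 16 receptors and co-receptors, *Fzd5* was called higher (4.03 and 8.44 CPM, 1.07, 0.80 to 1.35) and *Fzd10* lower (0.90 and 0.36 CPM, -1.35, -2.18 to -0.53), and the list's median was -0.41. *Fzd5* was at 0.05 (-0.32 to 0.42) without the *Prg4* cluster, and at 1.00 and 1.77 for female-called and male-called cells. *Fzd10* was at -0.79 (-2.41 to 0.60) for female-called and -2.48 for male-called cells. *Ryk*, the receptor with most UMIs, had 156 and 160 CPM (0.04).

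Of the 5 genes for ligand acylation, secretion and deacylation, *Notum*, which encodes an enzyme that removes the acyl group from the serine of the stretch shown above, was called higher. It had 163 UMIs in the BSA and 1069 in the FGF8 library, 4.76 against 15.9 CPM, a log2 ratio of 1.74 (interval 1.497 to 1.98). Female-called cells gave 1.67, male-called cells 2.17, and the class without the *Prg4* cluster 1.63. In the tenocyte-like and osteoblast-like cluster *Notum* was 4.03 and 20.7 CPM (2.36, 1.82 to 2.94) and in the *Prg4* cluster 13.7 and 24.6 CPM (0.84, 0.53 to 1.17), while the *Chodl* cluster had 1.05 and 1.06 CPM. *Wls*, the ligand carrier with most UMIs of the list, had 220 and 190 CPM (-0.21), and *Porcn*, which encodes Porcupine, 9.90 and 9.48 CPM (-0.06).

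None of the 13 intracellular core genes or the 12 target and feedback genes was called, with list medians of -0.10 and -0.33. Among the targets, *Axin2*, a direct target of beta-catenin signalling, had 32.9 and 19.2 CPM (-0.78, interval -0.90 to -0.66), *Nkd1* 66.8 and 35.0 CPM (-0.93) and *Lgr5*, the target with most UMIs, 66.3 and 55.2 CPM (-0.26). *Axin2* was at -0.43 in the *Chodl* cluster and 0.04 in the tenocyte-like and osteoblast-like cluster. Without the *Prg4* cluster *Axin2* was at -0.49 (-0.62 to -0.36) and *Nkd1* at -0.37 (-0.46 to -0.28). In the *Chodl* cluster, with 1417 BSA and 1360 FGF8 UMIs, *Nkd1* was at -0.19 (-0.29 to -0.08). Of 15 secreted antagonists and R-spondins, 2 were called lower, *Rspo1* (15.5 and 6.92 CPM, -1.16, -1.34 to -0.98) and *Sfrp5* (28 UMIs in all, -1.18, -2.37 to -0.01), and the list's median was -0.61. *Rspo1* was at -0.59 (-0.78 to -0.40) without the *Prg4* cluster, short of 2-fold, and at -1.13 and -1.19 for female-called and male-called cells. *Sfrp5* was at -2.91 for female-called cells, from 13 and 1 UMIs, at 0.63 for male-called cells, from 1 and 11 UMIs, and at -0.94 (-2.26 to 0.31) without the *Prg4* cluster.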

How the data were processed

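Single-cell RNA sequencing libraries of 1 BSA and 1 FGF8 pool were used. The authors captured cells with 10x 3′ chemistry and deposited raw UMI counts per gene and barcode from Cell Ranger 9.0.0 (version as in the submitters' processing notes) on GRCm39. The deposited counts held 3703 BSA barcodes with 67739460 UMIs and 7249 FGF8 barcodes with 124889213 UMIs.

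Cells with more than 200 and fewer than 7500 genes and under 15% mitochondrial UMIs were kept. They were clustered with Seurat 5.3.0 and sctransform 0.4.2 (R 4.3.3), as in the study's methods by SCTransform and CCA integration, but at a resolution of 0.8 in place of the study's 0.05, with 30 components chosen here. The 4 Wnt genes among the 3000 variable features were left out. Of the clusters, 6 were split further at a resolution of 0.3, a choice made after seeing the data. Clusters were named by the list with most markers among the 10 genes of largest fold found in at least 25% of cells, or else by the highest mean fold, with at least 3 markers found in 10% of cells. A cluster without a leading marker stayed unnamed if its UMIs were low or too small a share of the list's markers was found. The latter held for the *Corin* and *Alx4* cluster, with 3 of 6 markers. These naming rules were set after seeing the data. Differences from the study's cell types may come from these rebuilt names. Sex was called where only *Xist* or only *Ddx3y*, *Eif2s3y*, *Kdm5d* or *Uty* had UMIs.

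UMIs were summed per library and population in Python 3.11.15 (numpy 2.4.6, scipy 1.17.1, pandas 2.3.3; plots with matplotlib 3.10.9) and given per 1000000 UMIs with exact Poisson intervals. Shares of cells have exact Clopper-Pearson intervals and ratios have exact conditional ones. UMIs of the same cell are not independent, so all intervals cover counting error only. A count of 0 entered a ratio as 3 counts over the population. Levels of different ligands were not compared with each other. Scrublet (scanpy 1.11.5) called 2 BSA and 1 FGF8 barcodes as doublets, so it did not work here and doublets were kept. Ratios and intervals were tested on simulated Poisson counts, in which UMIs are independent. That test does not cover UMIs gathered in single cells.

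All 10 ligands were named. Pathway genes were named where called, with the receptor, secretion and target gene of most UMIs, and *Wnt6*, *Porcn*, *Axin2* and *Nkd1* were added after their values were seen. The members, lists and markers were chosen with earlier results of these data known. The values of 1 Schwann-like sub-cluster are not reported here.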

Additional observations from a re-analysis of the deposited data

Results flagged for a closer look

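For 4 of the 10 ligands, named populations of at least 20 cells in each library were called in opposite directions, FGF8 over BSA. The same was so for 19.4% of the 17153 genes with 10 UMIs in 2 or more of these populations. The highest and the lowest called value are given for each, and the difference between them was not tested. Some of these values appear above with their intervals. *Wnt16* had a log2 ratio of 1.38 in the Schwann-like cells led by *Gabra2* and *Fabp7* and -3.21 in the fibroblast-like cells led by *Lrp1b* and *Eln*, where it had 30 BSA and 3 FGF8 UMIs. *Wnt5b* had a log2 ratio of 2.64 in pericyte-like cells, from 4 UMIs in the BSA and 36 in the FGF8 library, of which 1 and 29 were in male-called cells. It had -1.93 in the chondrocyte-like cells led by *Col10a1* and *Ihh*. *Wnt4* had 1.32 in osteoblast-like cells and -1.20 in the chondrocyte-like cells led by *Ucma*, the latter -0.21 without the cell of most UMIs in each library. *Wnt5a* had 3.93 in keratinocyte-like cells led by *Krt1* and *Flg*, from 1 BSA and 18 FGF8 UMIs of which 10 were in 1 cell, and -1.48 in mast-like cells, where 16 of 17 BSA UMIs were in 1 cell and the ratio without the highest cells was 2.02.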

How the results depend on the processing

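No paired analysis was possible because each condition is 1 library. Of the 10 ligands, 2 were called in the connective tissue class. The number was 1, *Wnt2*, after thinning to 2000 UMIs, after centring on the median gene and without the 10 cells of most UMIs, and 1, *Wnt2b*, with the stricter cell filter, equal weight of cells and the BSA cluster makeup. Of both alternatives chosen after seeing the data, the low-UMI unnamed cluster also left *Wnt2* and the class without the *Prg4* cluster *Wnt2b*. The number was 3 without integration and among female-called cells, and 6 at a fold of 1.5, where 11.8% of all genes were called lower. At the study's resolution and among male-called cells the 2 called were *Wnt2* and *Wnt2b*, and after thinning to 5000 UMIs *Wnt2b* and *Wnt9a*. For the class, the share of all genes called is given only for the main rule and the fold of 1.5. *Wnt2* was below 0 under all 16 alternatives that gave a ratio (-1.47 to -0.65) and called under 11, and *Wnt9a* was below 0 under all 16 (-1.38 to -0.66) and called under 6. *Wnt11* (-0.98 to -0.47) and *Wnt16* (-0.89 to -0.51) stayed below 0 and *Wnt4* above it (0.11 to 0.86) under all 16. *Wnt5a* ranged from -0.36 to 0.13 and was above 0 under 3. *Wnt2b* ranged from -2.71 to 0.47 and was called under 8 of 15. Called pathway genes numbered 6, and 3 at the study's resolution of 0.05, where the class took in 377 cells of the keratinocyte-like and matrix-like cluster. For 9 of 10 ligands the population of highest level was the same after thinning to 2000 UMIs, the exception being *Wnt2b*. With 1 library per condition, depth limits what can be said of *Wnt2b* and *Wnt10b* most.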

Other observations

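Some values outside the comparisons concern cells in which little *Wnt5a* would be looked for. Macrophage-like cells had 6 *Wnt5a* UMIs in 4 of 113 BSA cells and 74 in 30 of 201 FGF8 cells, 2.99 and 21.8 CPM. Female-called cells had 3 and 4 of these UMIs, and male-called cells 1 and 56. The 8 fibroblast markers in the macrophage-like cells summed to 436 CPM in the BSA and 2196 CPM in the FGF8 library, and their part in the *Wnt5a* values was not tested. Among the Wnt genes outside the 10 ligands, *Wnt3* had 137 of its 154 UMIs and *Wnt3a* 29 of its 33 in the keratinocyte-like and matrix-like cluster, with 16.6 and 25.7 CPM for *Wnt3* in the BSA and FGF8 libraries.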
